A study of Mus musculus with 18 samples.

Results

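The S100a genes described here encode 10 small calcium-binding proteins: S100a1, S100a3, S100a4, S100a5, S100a6, S100a8, S100a9, S100a10, S100a11 and S100a13. They were taken as every probe whose transcript accession belongs to one of these genes, and they were picked with their levels on these arrays in view. Their values are therefore given as a description. Counts of members past a threshold are printed beside those of all genes, and nothing is read from them. Each of the 10 genes was read by 1 probe. All 10 were kept by the filter on dim probes that left 17928 genes, and each of the 10 was well above background in at least 2 arrays of every group.

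The arrays measured gene expression in the thyroid of C57BL/6 mice that were 1 month old, wild type (WT) or Glis3KO2 (KO2), a line with a targeted gene for Glis3, a zinc finger factor that controls transcription. There were 5 WT and 5 KO2 mice on a normal diet (NIH31), and 4 WT and 4 KO2 mice that had received a low-iodine diet (Harlan) for 6 days, all weaned at 3 weeks. The deleted part of Glis3 and the sex of the mice are not given in the sources used here. The comparisons asked which S100a genes differ between genotypes on each diet, and whether that difference changes with the diet. The 10 normal-diet arrays and the 8 low-iodine arrays were run on different slides and scanners. An effect of diet and one of the array set therefore cannot be told apart. The same holds for a genotype difference that changes between the diets. Each slide, though, held both genotypes in equal numbers.

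S100 proteins are dimers in which each chain carries a pair of EF-hands, helix-loop-helix motifs that bind calcium. Binding opens a surface that docks onto target proteins, so that most members act as calcium-dependent switches on annexins, the cytoskeleton, ion pumps or nuclear proteins. Several are also released from cells, where S100A8 and S100A9 signal through the receptors Tlr4 and Ager (RAGE). S100A10 is the exception that no longer binds calcium and is held in its active form. In a thyroid preparation the family is divided among cell types: S100A8 and S100A9 are best known from neutrophils and monocytes, S100A4 and S100A6 from fibroblasts and leukocytes, S100A1 from striated muscle, and S100A10, S100A11 and S100A13 are found in most tissues.

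The genes lie on chromosome 3 in 2 runs, one from S100a1 to S100a9 and one with S100a11 and S100a10. The upstream sequences of the 3 genes with the widest genotype differences are printed to show where TATAAA lies before their annotated starts. They are the 120 bases before the annotated start in RefSeq (GRCm38.p6), read on the gene's strand, with TATAAA, the core of a TATA box, in capitals.
S100a5 (chr3:90608402-90608521, plus strand): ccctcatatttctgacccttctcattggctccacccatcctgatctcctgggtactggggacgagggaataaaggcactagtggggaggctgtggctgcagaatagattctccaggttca
S100a8 (chr3:90668951-90669070, plus strand): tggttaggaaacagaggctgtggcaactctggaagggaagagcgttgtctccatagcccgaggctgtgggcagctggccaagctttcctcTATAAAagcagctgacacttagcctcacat
S100a9 (chr3:90695722-90695841, minus strand): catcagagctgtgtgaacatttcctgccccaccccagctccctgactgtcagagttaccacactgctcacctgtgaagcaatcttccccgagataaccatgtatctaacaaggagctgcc

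In S100a8 the TATAAA begins 30 bases before the annotated start. In S100a9 the same letters begin at base 1 after the annotated start, outside the stretch shown. The lack of capitals in S100a9 therefore depends on where its start is annotated. Windows from 250 bases before to 50 bases after the start were searched on both strands for 9 of the 10 genes. TATAAA was in the windows of S100a3, S100a4, S100a8 and S100a9, 4 of 12 windows of the 9 genes, and in 13.62% of 32851 windows of all genes. TGANTCA, the binding motif of AP-1 factors, was in the window of S100a11, and in 7.81% of all windows. TGGGGGGT, a G-rich sequence of the kind bound by Gli-type zinc fingers, was in none of the 9 genes' windows and in 1.53% of all windows. These are matches of letters and say nothing about binding.

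Levels are given as log2 of the processed signal minus the 75th percentile of the same array, so that 0 is the array's own 75th percentile and a step of 1 is a doubling. A level belongs to its own probe, and levels of different genes are not compared. Differences are KO2 minus WT on this log2 scale with the standard error (SE) of the limma fit over all 18 arrays. One array stood apart in its overall brightness: WT low-iodine replicate 2 had a median signal of 192 against 61.6 to 85.5 in the other 7 low-iodine arrays. Without it the low-iodine differences of S100a5, S100a8 and S100a9 were 3.90, 3.27 and 2.75.

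S100a5, whose protein binds calcium, zinc and copper and is known from olfactory neurons, was the member with the widest gap between genotypes. On the normal diet its level in WT replicates 1 to 5 was -2.01, 1.51, 2.42, 2.32 and -0.52. In KO2 replicates 1 to 5 it was 4.35, 3.39, 4.62, 2.48 and 4.29. All 5 KO2 arrays lay above all 5 WT arrays, but the lowest KO2 and the highest WT array were nearly level. The difference was 3.08 ± 0.70, or 8.46-fold. On low iodine the 4 WT arrays read 0.20, -1.02, -0.12 and -0.85 for S100a5, in replicate order, and the 4 KO2 arrays read 4.27, 3.52, 3.17 and 3.59. Here the groups stood far apart, and the difference was 4.09 ± 0.78, or 17.0-fold. Within the 5 slides, KO2 exceeded WT by 5.40, 1.58, 3.42, 4.35 and 3.83 for S100a5. The KO2 means on the 2 diets were close, at 3.83 and 3.64, while the WT means were 0.74 and -0.45. The genotype difference on low iodine minus that on the normal diet was 1.01 ± 1.05, a change no larger than its error, and it ran from 0.59 without WT normal-diet replicate 3 to 1.70 without WT normal-diet replicate 1.

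The spread of S100a5 on the normal diet was wider among WT arrays (SD 1.94, n = 5) than among KO2 arrays (SD 0.89, n = 5). WT replicates 1 and 5 held the 2 lowest WT values of 7 of the 10 members (S100a1, S100a3, S100a4, S100a5, S100a6, S100a8 and S100a13), and of 29.6% of all genes tested. Without WT replicate 1 the S100a5 difference was 2.39 and without WT replicate 5 it was 2.76. Among KO2 arrays the highest S100a5 value on each diet came from the array with the lowest parathyroid markers (Pth, Gcm2, Casr and Chga, all 4 measured). The summed level of these 4 markers was 3.48 in KO2 normal-diet replicate 3 against 9.18 to 10.08 in the other KO2 normal-diet arrays and at least 9.31 in WT. On low iodine it was 3.14 in KO2 replicate 1 against 6.93 to 7.46 in the other KO2 arrays and 6.61 to 7.07 in WT. Without those arrays the S100a5 difference was 2.88 on the normal diet and 3.88 on low iodine. KO2 normal-diet replicates 1 and 5 came close in S100a5, at 4.35 and 4.29 against 4.62, with summed parathyroid levels of 9.69 and 9.18. A link between S100a5 and these markers was not tested.

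**Figure D1:**
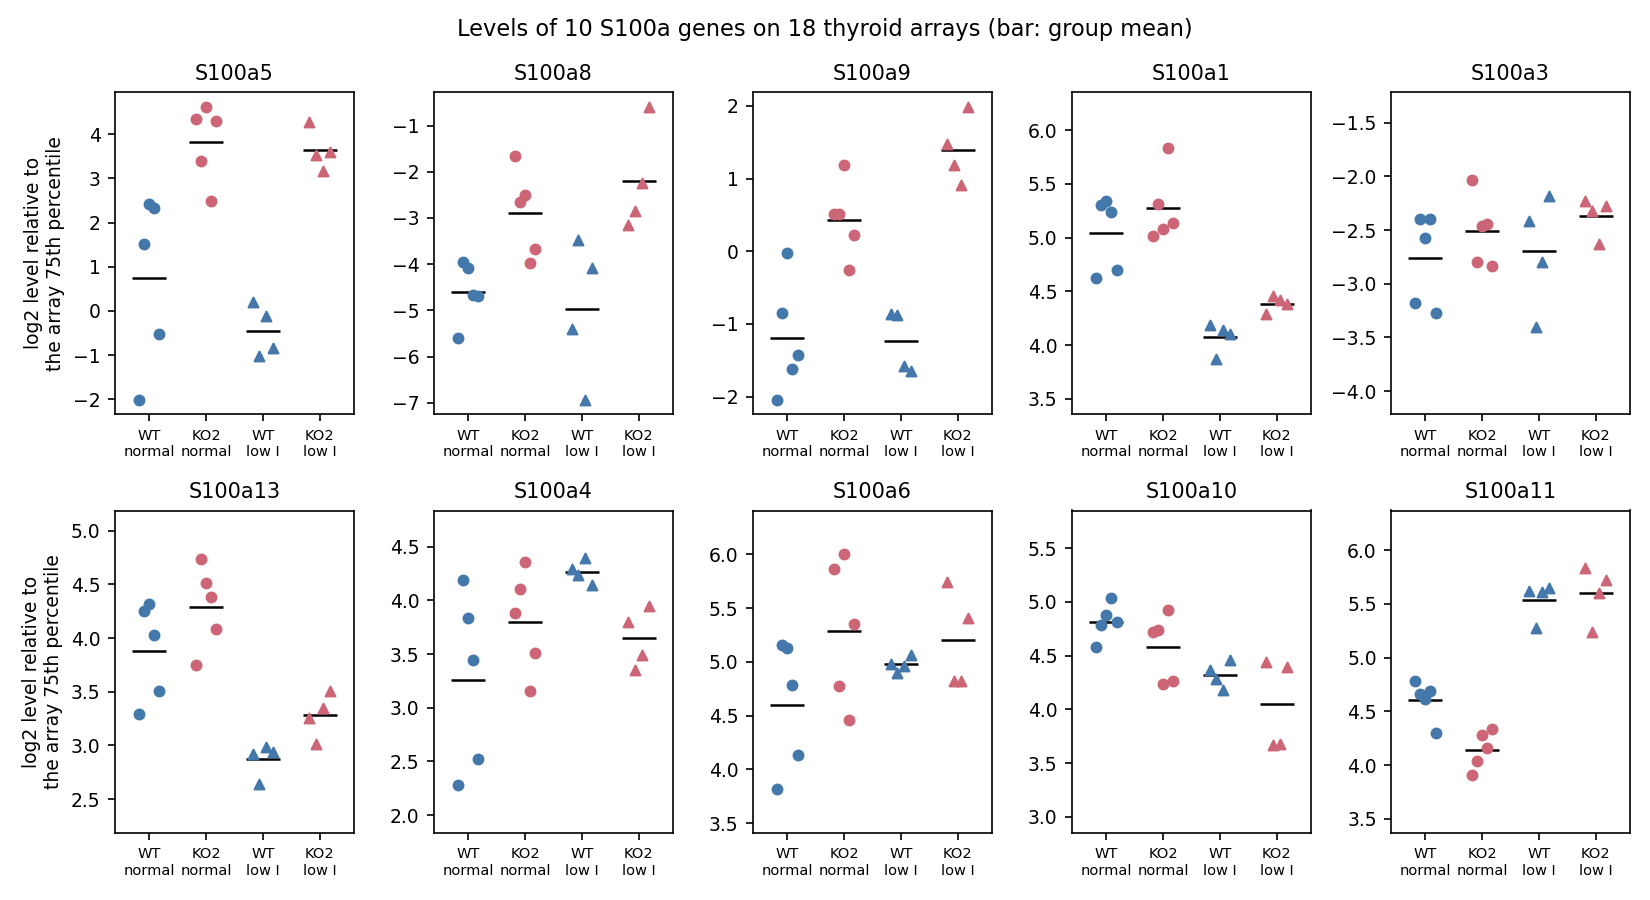
Level of each of the 10 S100a genes on the 18 arrays (y axis: log2 level over the 75th percentile of the array, with its own range in each panel; x axis: the 4 groups, with low I for the low-iodine diet). Each circle (normal diet) or triangle (low iodine) is 1 array, blue for WT and red for KO2, and each bar is a group mean. All KO2 arrays lie above all WT arrays of the same diet for S100a5 on both diets. On low iodine this also holds for S100a1, S100a8, S100a9 and S100a13, while for S100a4 all KO2 arrays lie below all WT arrays.

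S100a8 and S100a9 encode the subunits of calprotectin, a heterodimer that neutrophils and monocytes carry in bulk, that withholds zinc and manganese from microbes and that acts as a damage signal. Both were higher in KO2 thyroids. S100a9 on the normal diet was at -2.04, -0.85, -0.02, -1.61 and -1.43 in WT replicates 1 to 5. It was at 0.51, 0.51, 1.18, -0.26 and 0.23 in the KO2 replicates. Only WT replicate 3 reached into the KO2 range, above KO2 replicate 4, and the difference was 1.63 ± 0.35, or 3.09-fold. On low iodine S100a9 was at -0.86, -0.87, -1.58 and -1.65 in WT and at 1.47, 1.19, 0.91 and 1.99 in KO2. These groups did not overlap, and the difference was 2.63 ± 0.39, or 6.19-fold. Within the 5 slides, KO2 exceeded WT by 2.55, 0.90, 1.89, 2.59 and 2.67 for S100a9.

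S100a8 followed the same order at a dim probe. Its normal-diet values were -5.59, -3.95, -4.08, -4.67 and -4.70 in WT and -1.67, -2.65, -2.50, -3.97 and -3.67 in KO2. KO2 replicate 4 fell just below the highest WT array, and the difference was 1.71 ± 0.63, or 3.26-fold. On low iodine S100a8 was at -5.41, -3.47, -6.93 and -4.07 in WT, where replicates 1 and 3 were not well above background, and at -3.14, -2.84, -2.24 and -0.59 in KO2. The groups did not overlap, with a difference of 2.77 ± 0.71, or 6.80-fold. Because the WT side is dim, the size of this gap depends on the background correction and on any offset added to the signals. With a normexp correction and an offset of 50 the S100a8 difference was 0.74 on low iodine and 0.83 on the normal diet. An added offset narrows the log2 differences of dim probes, and its part was not separated from that of the correction. Within the 5 slides, KO2 exceeded WT by 2.95, 0.78, 2.01, 2.57 and 2.96 for S100a8. The difference on low iodine minus that on the normal diet was 1.06 ± 0.95 for S100a8 and 1.00 ± 0.52 for S100a9. For S100a8 that change was -0.09 with normexp correction and its offset, and 0.40 without WT low-iodine replicate 3. Its sign was thus not the same under the normexp setting. For S100a9 it was 1.55 with quantile normalization.

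Markers of neutrophils, the cells in which calprotectin is most abundant, did not all go the same way. Of 15 listed neutrophil markers 14 had a probe. On the normal diet 0 of 14 passed the threshold of the limma fit (Benjamini-Hochberg adjusted p under 0.05), with 3 at an unadjusted p under 0.05, and the granule genes Elane, Ngp, Camp and Mmp8 were not well above background on any of the 10 arrays. The summed level of the 14 markers ran from -0.03 to 0.70 in WT and from -1.10 to -0.07 in KO2. The lowest difference of the 14 was that of Ltf, the gene of lactoferrin, at -2.37 ± 0.63 (adjusted p = 0.075 by limma). The highest was that of Stfa1, at 2.07 ± 0.74 (adjusted p = 0.215), which was not well above background on any WT array of that diet. The median was 0.03. On low iodine 3 of 14 neutrophil markers passed, all higher in KO2, and they were picked out here after their values were seen. Retnlg, a resistin-like gene of mouse neutrophils, rose by 2.19 ± 0.58 (adjusted p = 0.017). The stefin genes Stfa1 and Stfa2, cysteine protease inhibitors, rose by 2.86 ± 0.83 (adjusted p = 0.028) and 3.12 ± 0.69 (adjusted p = 0.0059), but they belong to a family of near-identical copies that a probe may not separate. The calls of Retnlg (without WT replicate 3 or KO2 replicate 4, differences of 1.93 to 1.98) and of Stfa1 (without WT replicate 1, 3 or 4 or KO2 replicate 1 or 4, 2.27 to 2.91) were lost when those low-iodine arrays were left out. With normexp correction and its offset of 50, which narrows the differences of dim probes, the Retnlg, Stfa1 and Stfa2 differences were 1.02, 0.86 and 1.07. Mpo, Elane, Ngp, Camp and Mmp8 differed by -0.59 to -0.09 on low iodine. Ltf was again the lowest of the 14, at -1.004 ± 0.702, and it was -0.267 without WT low-iodine replicate 2. The median of the 14 on low iodine was -0.12. The summed level on low iodine was 0.15 to 2.41 in WT, the highest in replicate 2, and 0.90 to 1.83 in KO2.

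Of 14 monocyte and macrophage markers, none passed on the normal diet by limma, and 0 of them had an unadjusted p under 0.05. The unadjusted count was 7 of 14 on low iodine, with a median difference of -0.65 and a range from -1.25 to 0.70. On low iodine Cd163 rose by 0.70 ± 0.22 (adjusted p = 0.044), and Ccr2 and Itgam, which mark recruited monocytes and myeloid cells, fell by 1.25 ± 0.38 (adjusted p = 0.033) and 0.88 ± 0.25 (adjusted p = 0.024). Each of these calls was lost when any of several single arrays was left out: Cd163 in 12 of 18 fits (differences of 0.52 to 0.71), Ccr2 in 5 (-1.22 to -0.99) and Itgam in 4 (-0.87 to -0.73). The part of the myeloid cells in the S100a8 and S100a9 differences was not tested. In whole tissue fewer cells of a type and less RNA per cell cannot be told apart.

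**Figure D2:**
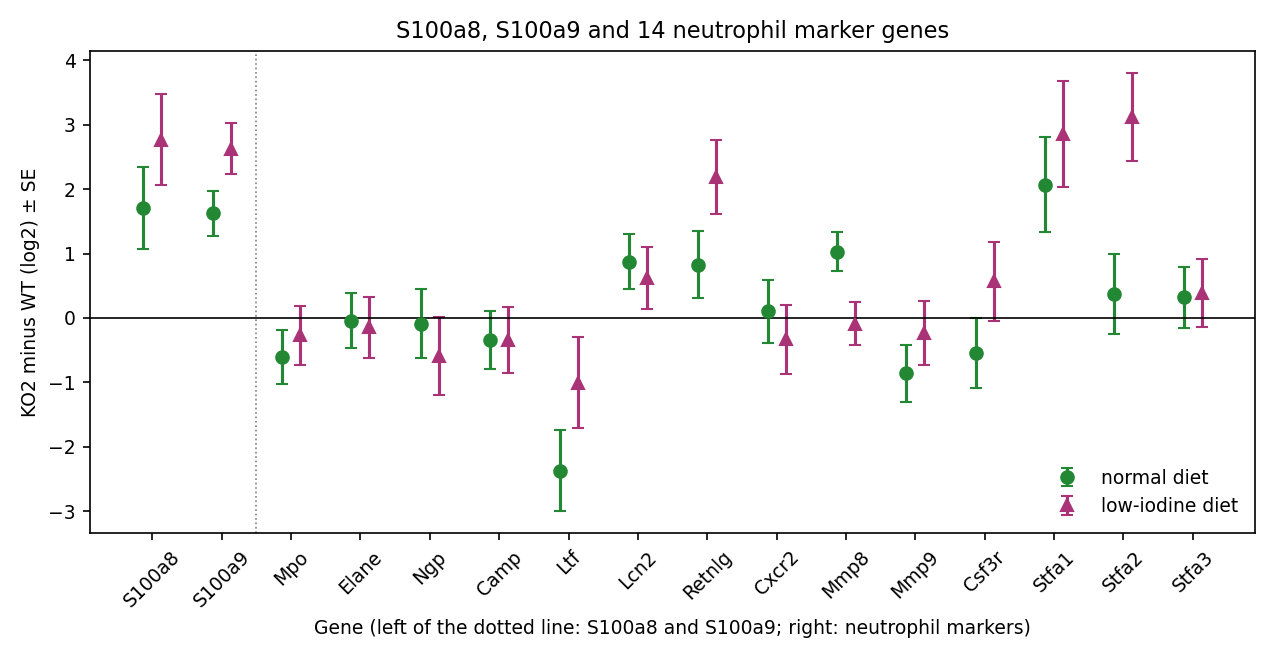
KO2 minus WT difference (y axis: log2, with bars of ± 1 SE) for S100a8, S100a9 and 14 neutrophil marker genes (x axis), as circles for the normal diet and triangles for low iodine. S100a8 and S100a9 lie above 0 on both diets, from 1.63 to 2.77. Of the 14 markers, Ltf lies lowest on both diets. On low iodine Retnlg, Stfa1 and Stfa2 lie above 2, and Mpo, Elane, Ngp, Camp and Mmp8 lie below 0. Elane, Ngp, Camp and Mmp8 were not well above background on any normal-diet array, so nothing is read from their circles. Stfa1 and Stfa2 were not well above background on any WT normal-diet array.

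S100a4, known from motile fibroblasts and leukocytes and a binder of nonmuscle myosin IIA, gave genotype differences of opposite sign on the 2 diets. S100a4 on the normal diet was at 2.28, 4.19, 3.83, 3.44 and 2.52 in WT and at 3.88, 4.11, 4.36, 3.16 and 3.51 in KO2. The groups overlapped, and the difference was 0.55 ± 0.32. On low iodine it was at 4.29, 4.24, 4.39 and 4.14 in WT and at 3.80, 3.35, 3.49 and 3.95 in KO2. Every KO2 array lay below every WT array, by 0.62 ± 0.36 on average. The difference on low iodine minus that on the normal diet was -1.17 ± 0.48 for S100a4, and -0.92 without WT normal-diet replicate 1. Within the slides the S100a4 difference was 1.82, -0.26 and 0.71 on the normal diet and -0.39 and -0.85 on low iodine, so that its sign was not the same on the 3 normal-diet slides. Without WT replicate 1 or 5 the normal-diet difference of S100a4 was 0.30 or 0.36.

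S100a6 (calcyclin), which binds the ubiquitin ligase adaptor CacyBP, lies next to S100a5 in the cluster. Its normal-diet values were 3.82, 5.15, 5.13, 4.78 and 4.13 in WT and 5.87, 4.78, 6.00, 4.46 and 5.36 in KO2. The KO2 arrays were split, with replicates 1, 3 and 5 above every WT array and replicates 2 and 4 within the WT range. The difference was 0.69 ± 0.32, and 0.49 without WT replicate 1. On low iodine S100a6 was at 4.98, 4.90, 4.97 and 5.07 in WT and at 5.74, 4.82, 4.82 and 5.41 in KO2. The KO2 values lay on both sides of the narrow WT range, and the difference of 0.22 ± 0.36 was 0.04 without KO2 replicate 1 and -0.04 without scaling between arrays.

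Fibroblast markers also differed between genotypes. Their median difference was -1.32 on the normal diet and -2.26 on low iodine, beside 0.55 and -0.62 for S100a4 and 0.69 and 0.22 for S100a6. Of 10 markers, 4 passed the threshold by limma on the normal diet, all lower in KO2 (1.39% of all genes passed). On low iodine 6 passed lower and 1, Dcn, higher (15.0% of all genes passed). By limma 8 and 9 of the 10 had an unadjusted p under 0.05 on the 2 diets. Col1a1, a chain of type I collagen, fell by 1.82 ± 0.40 on the normal diet (adjusted p = 0.032 by limma, a call lost in 5 of 18 fits without 1 array) and by 3.91 ± 0.45 on low iodine (adjusted p = 3.35e-05). The summed level of the 10 fibroblast markers was 6.78 to 7.43 in WT and 6.41 to 6.91 in KO2 on the normal diet, and 5.85 to 6.37 in WT and 3.77 to 4.47 in KO2 on low iodine. The part of fibroblasts in the S100a4 and S100a6 values was not tested.

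S100a10 and S100a11 encode the annexin-bound members. S100A10 forms a tetramer with annexin A2 at the cell surface and presents plasminogen and its activators there, and S100A11 binds annexin A1. S100a11 on the normal diet was at 4.78, 4.66, 4.62, 4.69 and 4.30 in WT and at 3.90, 4.03, 4.28, 4.16 and 4.34 in KO2. Apart from WT replicate 5, every WT array lay above every KO2 array, and the difference was -0.47 ± 0.14. On low iodine S100a11 was at 5.62, 5.27, 5.61 and 5.64 in WT and at 5.84, 5.24, 5.60 and 5.72 in KO2, which overlapped, with a difference of 0.06 ± 0.16 that was -0.20 without scaling and -0.02 without WT replicate 2. The change of the S100a11 difference between diets was 0.53 ± 0.21. S100a10 was at 4.58, 4.78, 4.87, 5.04 and 4.81 in WT and at 4.72, 4.74, 4.24, 4.92 and 4.27 in KO2 on the normal diet. On low iodine it was at 4.36, 4.28, 4.18 and 4.46 in WT and at 4.44, 3.67, 3.68 and 4.39 in KO2. The groups overlapped on both diets, with 2 low KO2 arrays each time, and the differences were -0.24 ± 0.18 and -0.27 ± 0.20. The S100a10 difference was -0.16 on the normal diet without KO2 replicate 3. On low iodine it was -0.15 without KO2 replicate 2, -0.12 with scaling to the array median, -0.47 with quantile normalization and -0.54 without scaling.

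The other 3 members differed little between genotypes. S100a1, which acts on the ryanodine receptor and the calcium pump of muscle, differed by 0.23 ± 0.18 on the normal diet and by 0.31 ± 0.20 on low iodine. The normal-diet difference of S100a1 was 0.09 without KO2 replicate 4 and 0.08 without scaling between arrays. On low iodine it was at 4.18, 3.87, 4.14 and 4.10 in WT and at 4.28, 4.45, 4.42 and 4.38 in KO2, a small gap without overlap. The gap was 0.05 without scaling between arrays. Skeletal muscle markers, 12 of 12 measured, had a summed level from 1.22 to 8.22 in WT and from -0.0032 to 9.62 in KO2 on the normal diet, the highest in KO2 replicate 4. Their 12 differences on that diet were all above 0, from 1.02 to 3.50 with a median of 2.18. On low iodine the summed level was 2.59 to 7.16 in WT and 2.39 to 6.37 in KO2. By limma 0 of the 12 passed the threshold in either comparison, with 1 at an unadjusted p under 0.05 on the normal diet and 0 on low iodine. The part of muscle in the S100a1 values was not tested. S100a13, which takes part in the export of Fgf1 and Il1a, differed by 0.41 ± 0.22 on the normal diet, where it was 0.27 without WT replicate 1, and by 0.41 ± 0.24 on low iodine. Its low-iodine values were 2.92, 2.64, 2.99 and 2.94 in WT and 3.26, 3.01, 3.35 and 3.50 in KO2, again without overlap, and the gap was 0.15 without scaling. S100a3, a cysteine-rich protein of the hair cuticle, differed by 0.25 ± 0.24 and 0.33 ± 0.27, with overlapping groups on both diets. The S100a3 difference was 0.12 without WT replicate 5 and 0.10 without scaling on the normal diet. On low iodine it was 0.10 without WT replicate 2, 0.07 without scaling, 0.11 with normexp correction and 0.91 with quantile normalization.

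**Figure D3:**
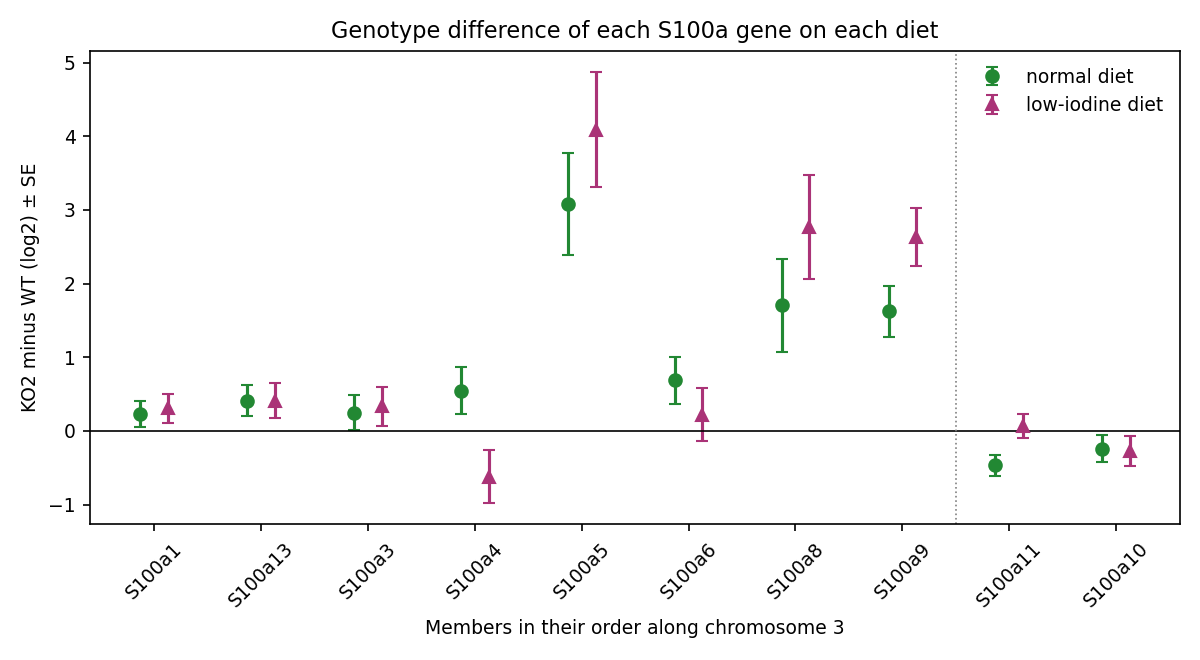
KO2 minus WT difference of each S100a gene (y axis: log2, with bars of ± 1 SE) on the normal diet (circles) and on low iodine (triangles), with the genes in their order along chromosome 3 (x axis, not to scale; the dotted line separates the 2 runs). S100a5 stands highest at 3.08 and 4.09, S100a8 and S100a9 follow, S100a4 is 0.55 on the normal diet and -0.62 on low iodine, and the other members lie between -0.47 and 0.69.

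Against all genes, the members counted as follows. For the normal diet 2 of 10 members, S100a5 and S100a9, passed the threshold, as did 1.39% of the 17928 genes tested (249 genes, 0.513% higher and 0.876% lower in KO2). Their groups did not overlap for 1 member, S100a5, and for 3.52% of all genes. On low iodine 3 of 10 members passed, S100a5, S100a8 and S100a9, as did 15.0% of all genes (2687 genes, 7.81% higher and 7.18% lower). Groups did not overlap for 6 members, S100a1, S100a5, S100a8, S100a9 and S100a13 higher and S100a4 lower, and for 19.7% of all genes (10.6% higher and 9.10% lower). In the interaction test 0 of 10 members and 1.22% of all genes passed, with 2 members at an unadjusted p under 0.05. It asks whether the genotype difference changes between diets, which here cannot be told apart from a change between array sets. The normal-diet count of members was 0 without KO2 replicate 1, 2, 3 or 5 or WT replicate 5 and from the normal-diet arrays alone. It was 1 with quantile normalization or the replicate number as a block (S100a9) and without scaling (S100a5). The low-iodine count was 2, S100a5 and S100a9, with normexp correction, from the low-iodine arrays alone and without KO2 replicate 4, where the S100a8 difference was 2.23. It was 4 with the replicate block, which added S100a13. Since the family was chosen on these values, nothing is read from the counts. The median difference of the 10 members was 0.48 on the normal diet and 0.32 on low iodine, beside 0.05 and -0.02 over all genes. Without scaling between arrays the members' median was 0.33 and 0.06 and that of all genes -0.11 and -0.29, and lower genes made up 90.6% of the calls on the normal diet and 86.5% on low iodine, against 63.1% and 47.9% with it. With scaling to the array median, lower genes made up 73.1% of the calls on the normal diet.

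Of the remaining S100 genes, which were tested with all genes, 6 had a probe that passed the filter. S100a16, a widely expressed member next to S100a14 in the cluster, fell by 0.80 ± 0.22 on low iodine (adjusted p = 0.022 by limma) and differed by 0.14 ± 0.20 on the normal diet (adjusted p = 0.839). That call was lost without WT low-iodine replicate 3 or 4 or KO2 low-iodine replicate 2 or 4, with differences from -0.75 to -0.65. S100b, the S100 gene of glia and Schwann cells, was lower in KO2 by a like amount on both diets but did not pass: -1.34 ± 0.37 (adjusted p = 0.093) and -1.19 ± 0.42 (adjusted p = 0.067), without overlap on low iodine. S100a14 differed by 0.36 ± 0.41 and 0.70 ± 0.46, and S100g, the calbindin of calcium-absorbing epithelia, by 0.54 ± 0.40 and 0.97 ± 0.45, and neither passed. S100a7a and S100a7l2, which are near copies and may share signal, were not well above background on any normal-diet array. On low iodine they were above background on all 8 arrays and differed by -0.26 ± 0.53 and -0.44 ± 0.49. The fused-type genes Hrnr, Rptn and Tchh, which join an S100 domain to long repeats and serve the cornified layer of skin and hair, did not pass in either comparison.

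Genes listed around the binding partners, receptors and targets of S100 proteins gave 74 measured of 78 listed, in 4 lists. The lists are broad, and binding by an S100 protein was not checked for each gene. On the normal diet 0 of the 74 passed by limma, with 8 at an unadjusted p under 0.05. On low iodine 13 passed (15.0% of all genes did), 4 higher and 9 lower in KO2, with a median difference of -0.03 over the 74 beside -0.02 over all genes. The split moved with the scaling: 1 was higher and 2 lower with scaling to the array median, 6 and 11 with quantile normalization, and 0 and 11 without scaling. None was called higher without WT low-iodine replicate 2 or 3 or KO2 low-iodine replicate 1. Among 19 genes listed as annexins and membrane partners 4 were lower and none higher. Anxa2, the partner of S100A10, fell by 0.86 ± 0.16 (adjusted p = 0.0022), beside a difference of -0.27 ± 0.20 for S100a10 itself. Plau, the plasminogen activator urokinase, and Plaur, its receptor, fell by 2.74 ± 0.32 (adjusted p = 3.51e-05) and 2.23 ± 0.27 (adjusted p = 4.94e-05). Their differences on the normal diet were -0.51 ± 0.28 and 0.04 ± 0.24, and the change between diets passed the interaction test for Plau (-2.23 ± 0.42, adjusted p = 0.018) and Plaur (-2.27 ± 0.36, adjusted p = 0.0062). Dysf, the membrane repair protein dysferlin, fell by 1.07 ± 0.30 (adjusted p = 0.025). Anxa1, the partner of S100A11, differed by -0.43 ± 0.32 and -0.31 ± 0.36 on the 2 diets.

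Of 17 genes for extracellular receptors and signalling, Bsg and Mcam, which encode cell-surface receptors of S100A9 and of the S100A8 and S100A9 dimer, fell on low iodine by 0.86 ± 0.22 (adjusted p = 0.015 by limma) and 0.66 ± 0.19 (adjusted p = 0.027). Ager, the receptor RAGE, differed by -0.66 ± 0.19 on the normal diet (adjusted p = 0.110) and by 0.66 ± 0.22 on low iodine (adjusted p = 0.0503). Neither passed, while the change between diets did (1.32 ± 0.29, adjusted p = 0.036). Tlr4, the other receptor of calprotectin, differed by 0.10 ± 0.13 and -0.30 ± 0.14 and did not pass.

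Of 22 genes listed as cytoskeletal and nuclear targets, 3 were lower and 3 higher in KO2 on low iodine. Tpm3, a tropomyosin, fell by 0.60 ± 0.13 (adjusted p = 0.0045 by limma), Tubb5, a tubulin, by 0.86 ± 0.24 (adjusted p = 0.026) and Capza1, an actin capping subunit, by 1.01 ± 0.29 (adjusted p = 0.026). Ndrg1, a stress-responsive gene, rose by 1.03 ± 0.30 (adjusted p = 0.029). Myh14, a nonmuscle myosin, and Rhbdf2, an inactive rhomboid protein, were also higher, by 0.80 ± 0.26 (adjusted p = 0.043) and 0.75 ± 0.24 (adjusted p = 0.045). Myh9, the myosin that S100A4 binds, differed by 0.29 ± 0.13 and 0.23 ± 0.15, and Cacybp, the partner of S100A6, by -0.30 ± 0.15 and -0.01 ± 0.17. Of 16 genes listed as calcium handling and export targets only Itpr3, an inositol trisphosphate receptor, passed, higher by 0.79 ± 0.23 (adjusted p = 0.028).

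The calls of Plau, Plaur, Anxa2 and Tpm3 on low iodine held in all 18 fits that left out 1 array. The others did not. Bsg lost its call without KO2 low-iodine replicate 1 (-0.70), Dysf without WT low-iodine replicate 3 or 4 or KO2 low-iodine replicate 1 (-1.06 to -0.71), and Capza1 without WT low-iodine replicate 2 or 4 or KO2 low-iodine replicate 1 or 4 (-0.94 to -0.84). Mcam (-0.66 to -0.58), Tubb5 (-0.85 to -0.79) and Itpr3 (0.61 to 0.80) each lost it in 5 of 18 fits and Ndrg1 in 6 (0.94 to 1.05), always with 1 low-iodine array left out. Myh14 lost it in 12 (0.53 to 0.86) and Rhbdf2 in 14 (0.48 to 0.83) of 18 fits. The interaction call of Ager was lost in 12 of 18 (1.23 to 1.32).

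**Figure D4:**
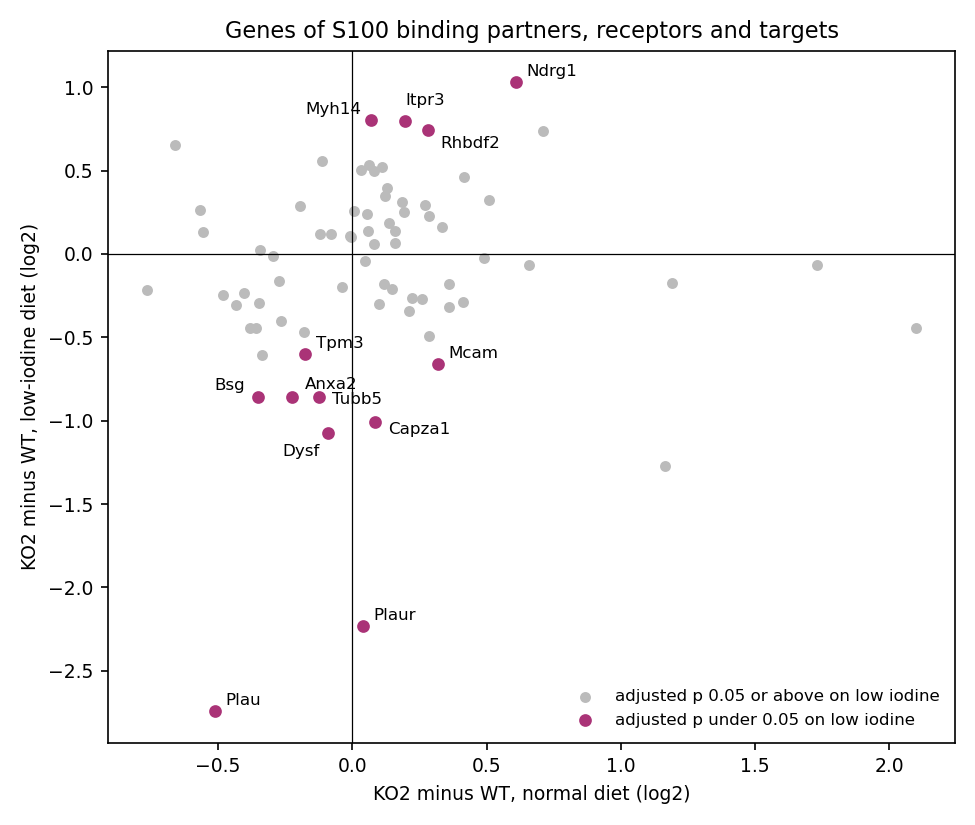
KO2 minus WT difference of 74 genes listed around S100 binding partners, receptors and targets on the normal diet (x axis, log2) and on low iodine (y axis, log2), each point 1 gene. The 13 genes that passed on low iodine are named and coloured; Plau and Plaur lie lowest, at -2.74 and -2.23 on low iodine, and none of the 74 passed on the normal diet.

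Other EF-hand genes show how calcium-binding proteins outside the S100 family behaved. Of 47 measured, 2 were lower on the normal diet: Tesc, a calcineurin-like regulator of ion exchange, fell by 0.86 ± 0.16 (adjusted p = 0.013 by limma), and Smoc2, a matrix protein, by 1.28 ± 0.28 (adjusted p = 0.032). The Smoc2 call was lost in 8 of 18 fits without 1 array (-1.30 to -1.11). On low iodine 3 rose and 6 fell. Tesc fell by 2.02 ± 0.18 (adjusted p = 5.43e-06), Sparc, a collagen-binding matrix protein, by 1.96 ± 0.20 (adjusted p = 1.21e-05) and Rcn3, a secretory pathway protein, by 1.72 ± 0.29 (adjusted p = 0.00091), and Lcp1, the leukocyte plastin, by 0.98 ± 0.20 (adjusted p = 0.0041). The median difference of the 47 was -0.06 on the normal diet and -0.28 on low iodine.

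Neighbouring genes of the cluster differed by unlike amounts. S100a4 and S100a6 flank S100a5, with differences of 0.55 and 0.69 on the normal diet against 3.08 for S100a5, and of -0.62 and 0.22 on low iodine against 4.09. The dim S100a7a lies between S100a6 and S100a8. Of 9 tested genes within 10 places of the ends of the 2 runs that are not S100 genes, 0 passed on the normal diet by limma (1.39% of all genes did). Ilf2 was the nearest to the threshold (0.49 ± 0.14, adjusted p = 0.092). All of them but Tdpoz1, which lies beyond S100a10, lie before S100a1. No tested gene from outside the family lies between the members or beyond S100a9. On low iodine Ilf2, an RNA-binding factor, rose by 0.65 ± 0.15 (adjusted p = 0.0086), and Slc27a3, a fatty acid transport protein, fell by 1.82 ± 0.33 (adjusted p = 0.0015). The others did not pass, and 15.0% of all genes did.

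Between the diets, low iodine minus normal, most genes differed: 75.9% passed the threshold in WT and 74.4% in KO2. Of the members 5 of 10 passed in each genotype, and none of these can be told apart from a difference between the array sets. S100a11 was higher on low iodine, by 0.93 ± 0.15 in WT and 1.46 ± 0.15 in KO2. S100a1 was lower by 0.96 ± 0.19 and 0.89 ± 0.19 and S100a13 by 1.01 ± 0.23 in each genotype. S100a10 differed by -0.50 ± 0.19 in WT and -0.53 ± 0.19 in KO2. S100a4 was higher by 1.01 ± 0.34 in WT and differed by -0.16 ± 0.34 in KO2. S100a9 differed by -0.05 ± 0.37 in WT and was higher by 0.95 ± 0.37 in KO2.

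Genes whose level moved most like a member's were ranked by Pearson's r over the 18 arrays after each diet's arrays were centred on their own mean. Genotype is shared by all such pairs, and the values are a description. For S100a5 the 5 highest were Snhg3, a host gene of small nucleolar RNAs (r = 0.96, Spearman's rho = 0.93), the amino acid transporter Slc7a8 (0.93, 0.93), Herc3 (0.92, 0.90), Usp20 (0.92, 0.90) and Alox12 (0.92, 0.89). S100a9 came at rank 15 for S100a5 (0.91, 0.89), S100a8 at rank 669 (0.72, 0.77) and S100a6 at rank 671 (0.72, 0.66). For S100a8 they were Stfa1 (0.88, 0.89), Hamp2 (0.88, 0.86), Sec14l4 (0.87, 0.85), Gpatch1 (0.86, 0.82) and Crybg2 (0.86, 0.85), with S100a9 at rank 10 (0.84, 0.86). For S100a4 they were Mustn1 (0.85, 0.83), Kcnq1 (0.85, 0.85), Ppfibp1 (0.84, 0.83), Ccdc102a (0.82, 0.66) and Elk3 (0.81, 0.88), with S100a6 at rank 65 (0.70, 0.63). Ppfibp1 encodes liprin beta, a listed S100A4 target. Ppfibp1 itself differed by 0.28 ± 0.17 and -0.49 ± 0.19 between genotypes and did not pass.

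Across the series, Glis3 was read by 1 probe, whose place relative to the deleted part is not given here, so it does not check the labels. Its level ran from -6.08 to -4.79 in WT and from -5.46 to -4.16 in KO2 on the normal diet, and from -1.60 to -0.74 in WT and from -4.06 to -1.49 in KO2 on low iodine. Follicular cell markers, such as Tg, were high in every group (summed level 7.31 to 9.24, 11 of 12 measured). By limma 2 of the 11 passed on the normal diet, Nkx2-1 higher and Slc26a4 lower in KO2, and 3 on low iodine, Nkx2-1 higher and Slc5a5 and Iyd lower. The calls of Nkx2-1 on the normal diet and of Iyd were lost in 9 and 6 of 18 fits without 1 array. Markers of neighbouring tissue were present too. Each of the 4 parathyroid markers was well above background on some array of every group. Their summed level was far lower in KO2 normal-diet replicate 3 (3.48) and KO2 low-iodine replicate 1 (3.14) than in the other arrays of those groups. Chga is also a listed C cell marker. Of 7 C cell markers Calca and Scg2 were higher in KO2 on low iodine, where the summed level was 6.37 to 6.80 in WT and 7.04 to 7.62 in KO2, and 0 of 7 passed on the normal diet, with 1 at an unadjusted p under 0.05. Of 7 thymic epithelial markers Psmb11, Prss16 and Ccl25 passed with lower levels in KO2 on the normal diet, with a median difference of -3.46 over the 7. The Psmb11 and Ccl25 calls were lost in 14 and 7 of 18 fits without 1 array. Of 13 proliferation markers 11 passed with lower levels in KO2 on the normal diet and 13 on low iodine. The part of these cells and genes in the members' differences was not tested. Thymocyte markers were at a summed level of 4.25 in WT normal-diet replicate 5 against 0.11 to 2.06 in the other WT arrays of that diet. The share of spots well above background ranged from 60.1% to 90.6% over the arrays, and the number of arrays limits the precision.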

How the data were processed

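Single-colour Agilent arrays of 18 thyroids were used (50 ng of total RNA amplified with NuGEN Ovation Pico, 5 ug of labelled cDNA, per the labels' protocols). The deposited value of each spot is the processed signal, a background-subtracted intensity, from Agilent Feature Extraction 12 per the submitters' processing notes. Its log2 minus the array's 75th percentile was taken after control spots and outlier flags were removed, and 82 probes flagged on some array were left out. Probes were named through their accession with the GRCm38.p6 gene table (68.5% matched 1 gene). Genes well above background on at least 4 of 18 arrays were kept, and the brightest probe stood for a gene. The 4 group means were fitted with limma 3.58.1 in R 4.3.3 (lmFit, eBayes) over all 17928 genes, with Benjamini-Hochberg adjustment and a threshold of 0.05. The script was tested on simulated data.

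The members, the gene lists and the naming rule were chosen with earlier results of these data known. The rule names every S100 gene, up to 4 called genes with the smallest p of each partner and EF-hand list and of the cluster's neighbours, and the 5 genes most like S100a5, S100a4 and S100a8. Marker genes and the partner genes Anxa1, Ager, Tlr4, Myh9, Myh14, Rhbdf2 and Cacybp were named outside it. The summed level of a list is the log2 of its summed relative signals. Some marker genes are not reported here and were left out of the sums. Alternatives were scaling to the array median, quantile normalization, no scaling (the deposited value table, which held the same signals), normexp with an offset of 50 on the median signals, since the mean signals were not in the files used here, no filter and a stricter one, the mean over probes, slide and replicate number as blocks, 1 diet alone, and leaving out each array.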

Additional observations from a re-analysis of the deposited data

Results flagged for a closer look

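Among 92 groups of 4 or 5 arrays checked for S100 and fused-type genes, 6 held an array far from the rest, where chance gives about 1 in 20. S100a11 was lower in WT low-iodine replicate 2 (5.27) than in the other WT low-iodine arrays. The same array stood far above the rest of its group for S100a7l2 (-2.13), Flg2 (-3.71) and a probe of Tchh (-2.22). It was also the highest of its group for other dim probes, among them those of S100a7a, S100a8, Hrnr, Rptn and Tchhl1, and for the summed level of neutrophil markers. Its median signal was 192 against 76.0 to 81.6 in the other WT low-iodine arrays, and 90.6% of its spots were well above background. S100a14 was low in KO2 normal-diet replicate 4 (0.72), and S100g was low in KO2 low-iodine replicate 3 (-0.41).

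The genotype difference changed between diets by limma's interaction test for 6 genes around the family and 1 follicular marker: Ager by 1.32 (adjusted p = 0.036), Plau by -2.23 (adjusted p = 0.018), Plaur by -2.27 (adjusted p = 0.0062), Slc27a3 by -1.90 (adjusted p = 0.047), Sparc by -1.34 (adjusted p = 0.023), Tesc by -1.16 (adjusted p = 0.030) and Slc5a5, the sodium iodide symporter, by -3.38 (adjusted p = 0.0099). The Ager call was lost in 12, the Slc27a3 call in 16 and the Tesc call in 7 of 18 fits without 1 array. The differences in those fits were 1.23 to 1.32, -2.03 to -1.59 and -1.11 to -1.05. None of these changes can be told apart from a change between the array sets.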

How the results depend on the processing

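The 10 members' differences gave 830 values over 28 alternatives, of which 817 moved by less than the replicate spread and 13 by more. Many of these could not move. The other filters, the mean over probes and the blocks returned the same difference for each member. A genotype difference on 1 diet is also fixed when that diet is fitted alone or an array of the other diet is left out. The count of 817 is thus no measure of stability. On low iodine S100a5 (3.77 to 4.53) and S100a9 (2.21 to 2.99) were past the threshold in all 28, S100a8 in 25. On the normal diet S100a5 (2.39 to 3.50) was past it in 15 and S100a9 (1.41 to 1.92) in 19 of 28. The members were chosen with these values in view, so these tallies describe the processing and nothing else is read from them. The members' median on low iodine was 0.059 without scaling. Leaving out 1 array moved it from 0.28 to 0.64 on the normal diet, 0.22 to 0.39 on low iodine and -0.02 to 0.18 for the interaction. Partner genes past the threshold numbered 3 with median scaling and 6 from low-iodine arrays alone, and 6 to 14 without 1 array; on the normal diet 0 to 1, the 1 without WT replicate 1 or without KO2 replicate 4. All genes past it on the normal diet numbered 160 with the replicate block, 3 from that diet alone and 123 to 675 without 1 array, the most without KO2 replicate 4. On low iodine they numbered 1642 with median scaling, 1673 from that diet alone and 1987 to 2731 without 1 array, and 3838 with quantile normalization. In the interaction test they numbered 712 with quantile normalization, 90 with median scaling and 131 to 230 without 1 array, against 219.

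Replicate numbers share no stated source, and deviations of same-numbered arrays correlated at -0.04 to 0.32 on the normal diet and 0.03 to 0.13 on low iodine. With the number as a block, 2760 genes were past the threshold on low iodine. Nearness to background limits the S100a8 values, of which those of 2 WT low-iodine arrays were not well above it.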
